A study of Mus musculus with 19 samples.

Results

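Short CDR3s of the T cell receptor β chain were described in CD4+ T cells of BALB/c mice 7 days after myocardial infarction, sham surgery or subcutaneous immunisation. The CDR3 is the loop that spans the junction of the V, D and J gene segments, and a short CDR3 was any table entry whose amino acid string held at most 9 residues. The strings leave out the cysteine that opens the loop and the phenylalanine that closes it. Of 1082330 distinct CDR3 strings in 19 libraries, 33173 were short, and 32911 of these were listed in at least 1 lymph node library.

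The 3 libraries named MI hearts came from CD4+ T cells sorted out of infarcted hearts, after ligation of the left anterior descending coronary artery, with 5000 cells each. The 3 MI nodes came from the heart-draining mediastinal lymph nodes after the same ligation, and the 4 sham nodes from mediastinal nodes after opening of the chest without ligation. Surgical groups received buprenorphine for pain. The 2 myosin nodes came from axillary nodes after subcutaneous injection of 100 µg porcine cardiac myosin, and the 3 heart extract nodes from axillary nodes after 1 mg of mouse heart protein. Both antigens were given in Titermax Gold adjuvant, for which the labels give either of 2 volumes. The 4 adjuvant nodes came from axillary nodes after the adjuvant alone, at the lower of those volumes. Every node library started from 500000 cells sorted as CD4+ and TCRβ+, and all mice were kept pathogen-free. The labels do not say whether a library is 1 animal or a pool, so each p-value reflects variation among libraries, which may be technical. Only β chain transcripts were amplified, so the sort could not be checked against other marker genes.

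As background, a β chain CDR3 begins with the end of a V segment, ends with the start of a J segment, and holds in its centre the remains of a glycine-rich D segment and nucleotides added without a template. Enzymes trim the segment ends before joining, so a short loop has lost more germline residues, gained fewer added ones, or both. The loop sits over the peptide presented by the MHC molecule, and its length sets how far it can reach. Shorter junctions with few added residues can arise more often by chance in separate animals, and strings found in many animals are called public.

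The 10 short strings listed in all 16 node libraries show how such a loop is built. Each is given with its leading segment pair, the residues that follow the conserved start of the V segment or the conserved end of the J segment in lower case, and the residues matching neither in capitals.
TRBV19 with TRBJ2-7: assRQyeqy
TRBV14 with TRBJ2-1: assLyaeqf
TRBV5 with TRBJ2-5: assqEdtqy
TRBV4 with TRBJ2-1: assSyaeqf
TRBV19 with TRBJ2-1: assNyaeqf
TRBV14 with TRBJ2-4: assSqntly
TRBV4 with TRBJ2-7: assRyeqy
TRBV4 with TRBJ2-4: assLqntly
TRBV4 with TRBJ2-7: assFSyeqy
TRBV20 with TRBJ2-7: garDNyeqy
The leading pair held 100% of the reads of garDNyeqy. In the other 9 strings it held between 31.0%, for assSqntly, and 87.4%, for assNyaeqf, and the remaining reads came from further pairs. Capitals hold 1 or 2 residues in all 10. Their mean share of node reads ran from 0.00200% for garDNyeqy to 0.00919% for assRQyeqy.

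Node libraries held 7534295 to 9235800 reads, and the hearts 2426715, 4400003 and 5126910. Short CDR3s took 227717 to 302957 reads and 1226 to 7720 distinct strings in a node, against 50615, 148982 and 183009 reads and 84, 115 and 178 strings in the hearts. Reads were amplified by PCR and no molecular identifiers are mentioned in the labels, so intervals cover counting error only.

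Short CDR3s made up a like share of reads in every group of nodes. Their share of reads was 3.01, 2.88 and 3.31% in the MI nodes (3.07 ± 0.219%, SD, n = 3), against 3.15, 3.08, 3.20 and 3.16% in the sham nodes (3.15 ± 0.0510%, n = 4). It was 3.04 and 3.23% in the myosin nodes and 3.53, 2.96 and 3.26% in the heart extract nodes, against 2.98, 2.95, 3.06 and 3.34% in the adjuvant nodes (3.08 ± 0.176%, n = 4). These ranges overlapped between all groups of nodes. The hearts had 2.09, 3.39 and 3.57% (3.01 ± 0.809%, n = 3), so 1 heart lay below every node and 1 heart lay above every node.

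Among distinct strings the short share was 3.40 ± 0.0707% in MI nodes and 3.37 ± 0.170% in sham nodes. It was 3.35 ± 0.143% in the 5 antigen nodes, myosin and heart extract together, and 3.22 ± 0.339% in adjuvant nodes. Hearts had 2.90, 2.77 and 3.71%, against 3.38, 3.35 and 3.48% in the MI nodes. Over all 16 nodes the distinct share averaged 3.33% and the read share 3.13 ± 0.171%.

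**Figure D1:**
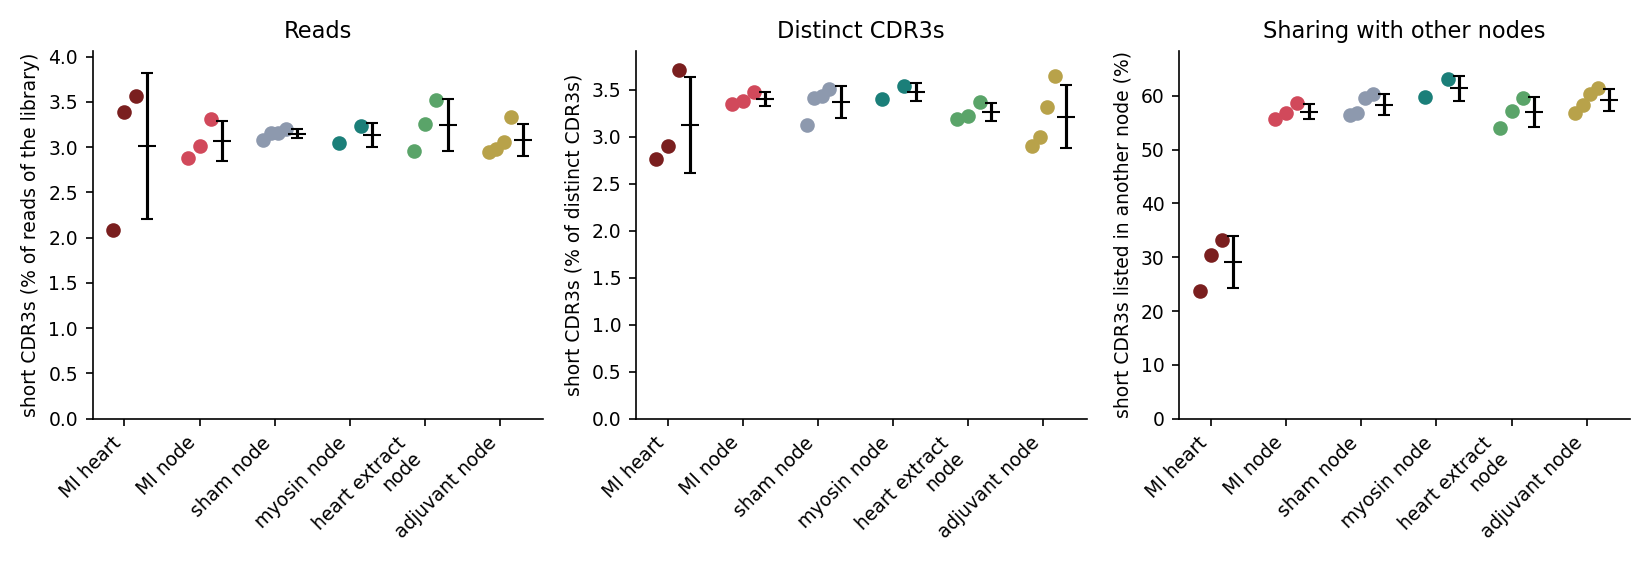
Share of reads (left), share of distinct strings (middle) and the percentage of a library's short strings listed in another node library (right), all in percent, for CDR3s of at most 9 residues. Each point is 1 library and the black bars give the mean ± SD of a group; in the right panel the hearts, at 23.8 to 33.1%, lie below all nodes.

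Most short CDR3s lay at the limit of 9 residues. In nodes 25913 strings had 9 residues, 5081 had 8 and 1917 had 7 or fewer. Strings of 9 residues held 2.65 ± 0.129% of node reads (n = 16), those of 8 held 0.390 ± 0.0646%, and those of 7 held 0.0641 ± 0.0173%. Just outside the limit, strings of 10 residues held 8.65 ± 0.395%, and the peak at 12 residues held 30.2 ± 0.356%. In the hearts no string had 6 residues or fewer, 1 heart held strings of 7 residues with 742 reads, and strings of 9 residues had 46389, 145388 and 181649 reads.

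The shortest strings that recurred are close to V and J ends joined with little between them. Of strings in at least 8 nodes, the shortest were ASGEQY in 10 nodes and ASGEVF in 9 nodes, both of 6 residues. ASSYEQY, in 13 nodes, and ASRYEQY and ASSDEQY, in 9 nodes each, had 7 residues. Written with the centre in capitals, they show how little is left.
TRBV14 with TRBJ2-7: asGeqy
TRBV13-2 with TRBJ1-1: asgevf
TRBV15 with TRBJ2-7: assyeqy
Only the first of these has a residue outside the conserved ends of its leading segments. No string of 7 residues or fewer was listed in all 16 nodes.

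V segments were used differently in short and in longer CDR3s. TRBV5 (older name Vβ1) was the segment most depleted. It took 4.60, 6.52 and 9.01% of short reads (lowest, median and highest of 16 nodes), against 18.3, 20.4 and 22.2% of longer reads. TRBV20 (Vβ15) had the largest rise in percentage points, though rarer segments rose more relative to their longer share. It took 6.86, 8.48 and 9.62% of short reads against 3.11, 3.51 and 3.81% of longer reads. In neither TRBV5 nor TRBV20 did the ranges of short and longer reads overlap.

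TRBV5 fell by 13.9 percentage points in short reads and was lower in 16 of 16 nodes, and TRBV2 (Vβ4) fell by 2.04 points, also in all nodes. TRBV20 rose by 4.91 points, TRBV19 (Vβ6) by 4.26, TRBV4 (Vβ10) by 1.74 and TRBV15 (Vβ12) by 1.61, each in 16 of 16 nodes (exact sign-flip permutation test over libraries, two-sided, adjusted p = 6.71e-05 each, which rests on the smallest p the test can give). TRBV31 (Vβ14), which lies behind the constant region genes in inverted orientation, rose by 2.20 points in 15 of 16 nodes (adjusted p = 0.000103). TRBV1 (Vβ2) was lower in short reads by a mean of 1.11 points and in 14 of 16 nodes (adjusted p = 0.000384). In all, 17 of 22 V segments passed the test (77.3%), of which 14 were higher in short CDR3s (63.6%) and 3 lower (13.6%). Shares within a length class add up to the whole, so the fall of TRBV5 goes with rises of others and the calls are not independent. The V start is also part of the string whose length sets the classes, and the test cannot separate V use from that limit.

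**Figure D2:**
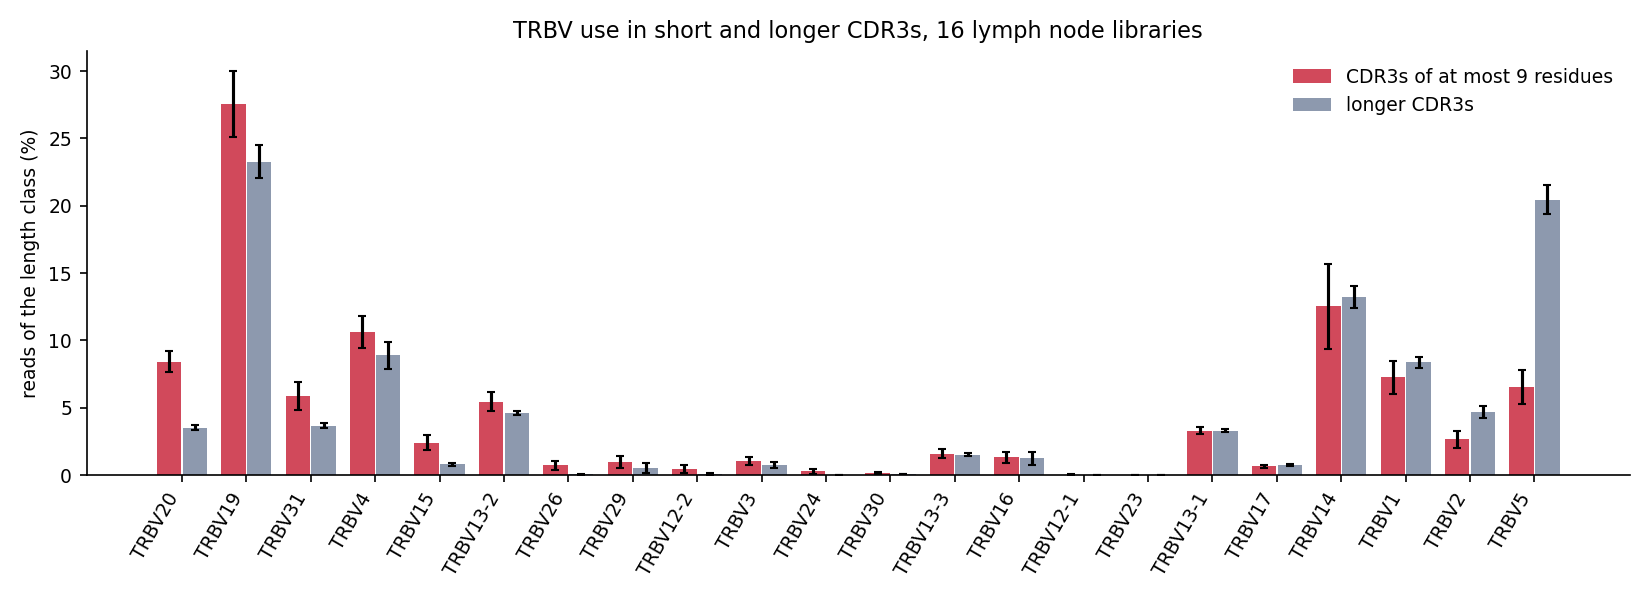
Share of reads by V segment, in percent, in short CDR3s and in longer CDR3s. Bars give the mean and lines the SD over 16 node libraries; TRBV5 stands at 6.55% of short reads against 20.5% of longer reads, and TRBV20 at 8.42% against 3.52%.

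TRBV19 was the leading V segment of short CDR3s, with 27.5 ± 2.47% of short reads against 23.3 ± 1.23% of longer reads. Its excess was one of reads: among distinct entries it was lower in short CDR3s, by a mean difference of -1.27 points, and with a limit of 8 residues its share of reads was also lower, by a difference of -4.62 points. TRBV4 likewise had a difference of -0.0131 points among distinct entries, and TRBV2 did not pass at a limit of 8 residues (difference -0.186 points, adjusted p = 0.735). TRBV14 (Vβ13) took 12.5 ± 3.16% of short reads and 13.2% of longer reads and did not pass the test (adjusted p = 0.406).

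V segments were also grouped by the length of their conserved start, with no test between the groups. Of the 12 segments with a conserved start of 3 residues, such as TRBV19, TRBV14 and TRBV4 with ASS, TRBV20 with GAR and TRBV31 with AWS, 9 were higher in short CDR3s and 0 lower, with a median difference of 0.63 points. Of the 10 with 4 residues, such as TRBV5 and TRBV2 with ASSQ and TRBV1 with TCSA, 5 were higher and 3 lower, with a median of 0.02. The median over all 22 was 0.19 points. Points depend on how common a segment is, so rare segments differ little in points. As a share of a segment's own reads, the short part (median of 16 nodes) spread widely in both groups. It ran from 3.09% for TRBV14 to 26.1% for TRBV24 with 3 residues, and from 1.00% for TRBV5 to 21.1% for TRBV26 with 4. These starts were read from the longer CDR3s of the same libraries.

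Among the 5 V segments whose T cells are deleted by superantigens of endogenous mouse mammary tumour viruses in strains such as BALB/c, 4 were higher in short CDR3s and 0 lower (median difference 0.33 points), against 14 higher of all 22 (63.6%, median 0.19 points). The 5 were TRBV26, TRBV12-1, TRBV12-2, TRBV16 and TRBV15, and together they held 4.97 ± 0.869% of short reads and 2.29 ± 0.649% of longer reads. Of the 5 segments that pair with the invariant α chain of natural killer T cells or related receptors (TRBV13-1, TRBV13-2, TRBV13-3, TRBV29 and TRBV1), 2 were higher and 1 lower, with a median of 0.07 points, against the same 63.6% higher over all 22. The share of a segment's own reads that were short shows the spread. It was 30.2 ± 13.5% for TRBV24, 24.5 ± 11.8% for TRBV26 and 15.2 ± 12.1% for TRBV23, 3 rare segments chosen after their values were seen, against 1.02% for TRBV5.

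All 11 J segments differed between short and longer CDR3s (100%), 2 of them higher (18.2%) and 9 lower (81.8%). Shares within a length class add up to 100%, so the rises of 2 segments go with falls of others. The calls are therefore not independent of each other. The J end is also part of the string whose length sets the classes, and the test cannot separate J use from that limit. TRBJ2-7, whose conserved end YEQY is the shortest, took 22.2, 27.0 and 30.6% of short reads (lowest, median and highest of 16 nodes) against 10.6, 11.8 and 12.5% of longer reads. TRBJ1-1, which ends in NTEVF, took a median of 27.6% and at most 32.4% of short reads against a median of 14.6% and at most 17.6% of longer reads. For neither segment did any node's share of longer reads reach the lowest share of short reads.

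TRBJ2-7 rose by 15.3 points and TRBJ1-1 by 13.0 points in 16 of 16 nodes. TRBJ1-3 fell by 6.25 points, TRBJ2-3 by 6.12, TRBJ1-4 by 5.10, TRBJ2-2 by 4.07 and TRBJ2-4 by 2.62, each in all 16 nodes (exact sign-flip permutation test, two-sided, adjusted p = 4.80e-05 each). TRBJ2-1 fell by 1.71 points, in 14 of 16 nodes (adjusted p = 0.00138); in the 7 mediastinal nodes alone its difference was -1.21 points and did not pass (adjusted p = 0.138). TRBJ1-2, TRBJ1-5 and TRBJ2-5 also passed, each lower by less than 1 point.

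**Figure D3:**
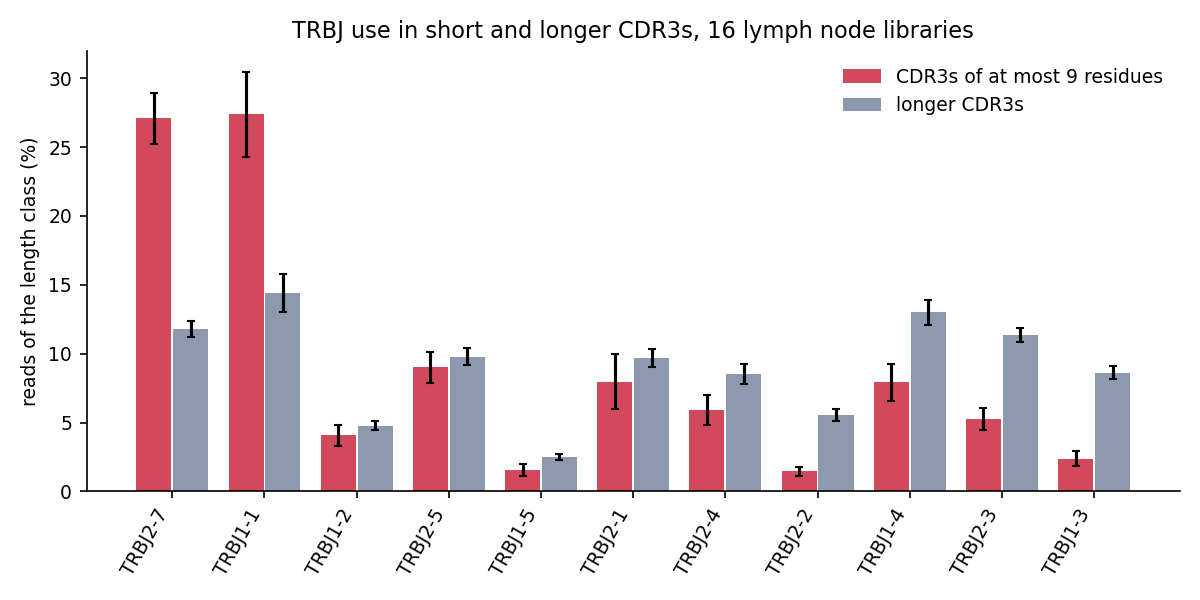
Share of reads by J segment, in percent, in short and in longer CDR3s. Bars give the mean and lines the SD over 16 node libraries; TRBJ2-7 stands at 27.1% of short reads against 11.8% of longer reads and TRBJ1-1 at 27.4% against 14.4%, while the other 9 segments are lower in short CDR3s.

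The 3 J segments with a conserved end of 6 residues, TRBJ1-3 (SGNTLY), TRBJ2-2 (NTGQLY) and TRBJ2-3 (SAETLY), were all lower in short CDR3s, with a median difference of -6.12 points against -1.71 over all 11. Of the 7 with 5 residues, TRBJ1-1 alone was higher and 6 were lower. Only 0.859% of TRBJ2-2 reads and 0.893% of TRBJ1-3 reads were short, against 6.92% for TRBJ2-7 and 5.80% for TRBJ1-1. The TRBJ1 cluster held 43.3% of short and 43.3% of longer reads, with 1 of its 5 segments higher and 4 lower, and the TRBJ2 cluster had 1 of 6 higher and 5 lower. The most used pair was TRBV19 with TRBJ1-1, at 8.73 ± 1.74% of short reads against 3.56% of longer reads, and TRBV19 with TRBJ2-7 held 6.43% against 2.25%.

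Short loops kept less of both conserved ends. These were read from the longer CDR3s, so germline residues beyond them count as centre. The full conserved J end was kept in 34.8% of short node reads against 69.5% of longer ones, and the full V start in 62.7% against 77.8%. TRBJ1-1 kept all of NTEVF in 21.6% of short reads against 62.3% of longer reads, and TRBJ2-7 kept all of YEQY in 48.8% against 73.0%. The centre, the stretch matching neither end, averaged 2.26 ± 0.0387 residues in short and 4.28 ± 0.0203 residues in longer CDR3s. It had at most 1 residue in 22.6% of short reads against 0.563% of longer reads. In 2.12 ± 0.487% of short reads it was empty, against 0.0149% of longer reads; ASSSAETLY, written asssaetly with TRBV19 and TRBJ2-3, is such a string. These shares follow in part from the length limit and carry no test.

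Glycine, a residue that D segments often encode, was rarer in short CDR3s. At least 1 glycine was present in 59.8 ± 1.13% of distinct short strings against 83.7 ± 0.591% of longer ones, lower in 16 of 16 nodes (exact sign-flip permutation test, two-sided, adjusted p = 4.07e-05). A shorter string also has fewer places for any residue. Within the centre alone, glycine made up 18.5% of residues in short and 26.4% in longer CDR3s.

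Short strings were found again in other nodes more often than longer ones. Of a node's short strings, 58.4 ± 2.32% were listed in at least 1 other node, against 51.0 ± 2.55% of its longer strings, and the short share was higher in 16 of 16 nodes (mean difference 7.43 points, exact sign-flip permutation test, two-sided, adjusted p = 4.07e-05). A short string was listed with 1.40 ± 0.0332 V and J pairs in a library, against 1.23 ± 0.0336 for a longer one, again higher in all 16 nodes (adjusted p = 4.07e-05). Reads per string, on the log2 scale, differed by -0.09 and were lower in short strings in 12 of 16 nodes (adjusted p = 0.00327). In the 9 axillary nodes alone that difference was -0.0641 and did not pass (adjusted p = 0.109). All 4 properties tested passed (100%), 2 higher in short CDR3s (50%) and 2 lower (50%).

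The excess in sharing rested on strings of 9 residues. With a limit of 8 residues the difference in sharing turned to -3.38 points (adjusted p = 0.000305). Strings listed in a single node made up 83.7% of those with 7 residues or fewer, 76.3% of those with 8, 71.4% of those with 9, 69.8% of those with 10, 76.7% of those with 11 to 14, and 94.4% of those with 15 or more. The share therefore had its lowest value at 10 residues, just outside the limit. In total 72.9% of short strings and 77.2% of longer strings were seen in 1 node. At the public end, 862 short strings (2.62%) were in at least 8 nodes and held 33.1% of short reads, against 18638 longer strings (1.79%) with 28.1% of longer reads, and 10 short and 306 longer strings were in all 16.

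**Figure D4:**
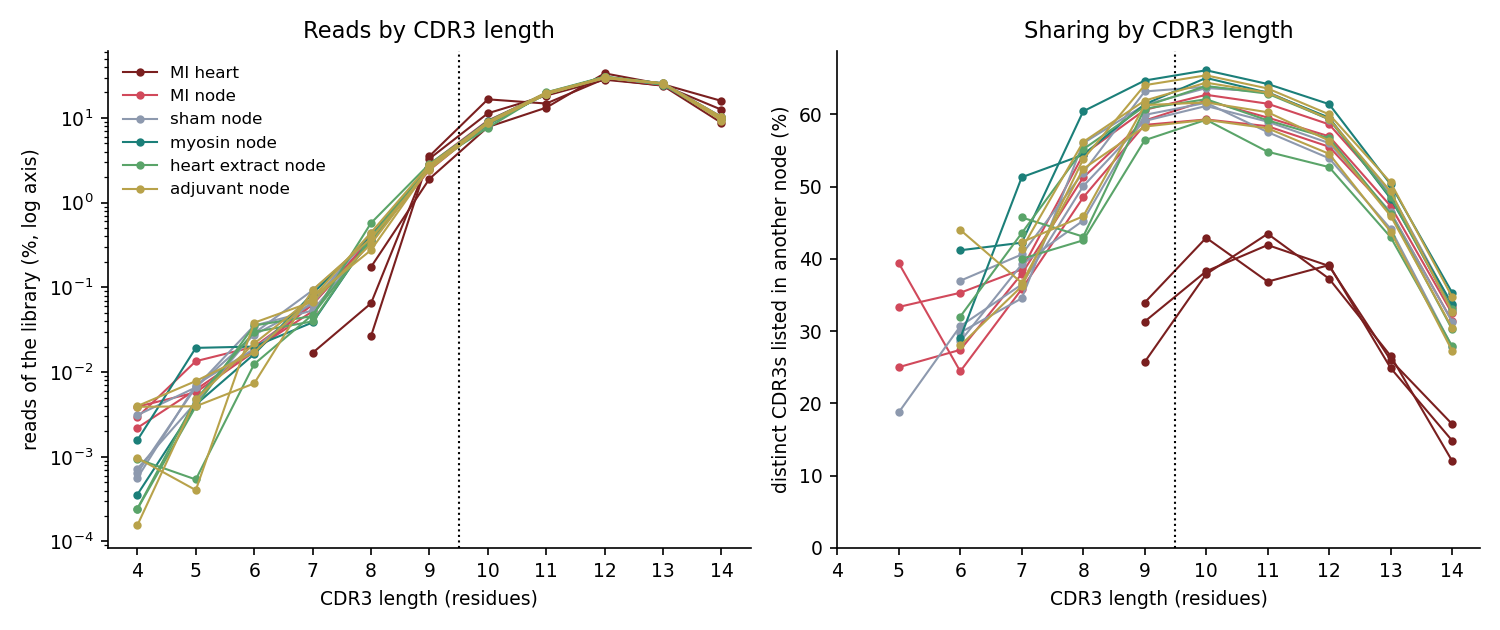
Share of reads by CDR3 length on a log axis (left, percent) and percentage of strings listed in another node library by length (right), for hearts and nodes, with points for lengths of at least 20 distinct strings in the right panel. The dotted line marks the limit of 9 residues; reads fall steeply below it, and the hearts have none at 6 residues or fewer.

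After infarction, no change in the short CDR3s of the draining nodes passed the permutation tests or edgeR's test. DESeq2 called 110 of 4712 short strings, beside 3816 of 121771 strings of all lengths, so calls were not particular to short strings. MI nodes minus sham nodes, the difference in read share was -0.0797 points (exact permutation test, two-sided, p = 0.514), in distinct share 0.0312 points (p = 0.886) and in sharing -1.23 points (p = 0.429). Reads per short string over reads per longer string was 0.898 ± 0.0466 in MI nodes and 0.934 ± 0.0537 in sham nodes (exact permutation p = 0.457). Adjusted over these 4 measures the lowest p was 0.686, and the smallest raw p that 3 against 4 libraries allow is 0.0286.

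Fitted on read counts with edgeR's quasi-likelihood test, 0 of 8 short lengths, 0 of 22 short V classes, 0 of 11 short J classes and 0 of 4712 short strings passed between MI and sham nodes, against a background of 0% in each of these tables. At an unadjusted p under 0.05 there were 1 length, 0 V classes, 0 J classes and 386 strings, and DESeq2 called 0, 0, 0 and 110. The strings at that p were 8.19% of short strings tested, against 9.77% of strings of all lengths, and DESeq2 called 3816 strings of all lengths. The lowest edgeR adjusted p was 0.786 for lengths, 0.985 for V, 0.465 for J and 0.455 for strings. The strings with the smallest p were present in some libraries and missing in the others. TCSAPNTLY, made from TRBV1, had 30, 33 and 3429 reads in the MI nodes and 0 in all 4 sham nodes, and was listed in no other library. It met the minimum of 3 libraries only through the MI nodes. Its direction was therefore fixed by that filter, and it is given as values with no test. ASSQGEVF had 90, 430 and 265 reads in the MI nodes and 0 in the sham nodes, but was also listed in 3 axillary nodes. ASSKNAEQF had 148, 40 and 343 against 0, and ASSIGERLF 417, 0 and 656 against 0. Both were also listed in axillary nodes. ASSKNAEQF had 405 and 267 reads in adjuvant nodes 1 and 4 and 202 and 181 in the myosin nodes, and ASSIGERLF had 443 in myosin node 1. ASKRNTEVF had 0 in all 3 MI nodes, against 2784, 0, 5 and 0 in the sham nodes. None of the strings named here after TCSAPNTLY passed (edgeR adjusted p = 0.455 for each).

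Of 1028 short strings listed in every MI node, 104 were in no sham node (10.1%), close to the 10.4% of longer strings (2385 of 22971). Of 167 short strings in every sham node, 0 were missing from all MI nodes, against 60 of 3979 longer strings (1.51%). Short strings in every library of a group were 6.76% of those in any MI node, against 5.06% of longer strings, and 1.27% in sham nodes, against 1.03%. Myosin nodes had 11.4% against 8.73%, heart extract nodes 1.43% against 1.13%, and adjuvant nodes 57 of 7816 short against 1674 of 235788 longer strings. These shares depend on how many libraries a group has and how many strings each holds.

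After immunisation with cardiac antigen the permutation tests and edgeR likewise called no change. DESeq2 called 1 of 22 short V classes, where it called 1 of all 44 V classes. It also called 428 of 4712 short strings, beside 13287 of 121771 strings of all lengths. Antigen minus adjuvant nodes, read share differed by 0.119 points (exact permutation test, two-sided, p = 0.437), distinct share by 0.133 points (p = 0.452) and sharing by -0.444 points (p = 0.810). The ratio of string sizes was 0.956 ± 0.0721 in antigen nodes (n = 5) and 0.962 ± 0.0780 in adjuvant nodes (n = 4, exact permutation p = 0.897). All 4 had an adjusted p of 0.897, and the smallest raw p the design allows is 0.00794. In edgeR's quasi-likelihood test 0 of 8 lengths, 0 of 22 V classes, 0 of 11 J classes and 0 of 4712 short strings passed, with a background of 0% each. At an unadjusted p under 0.05 there were 1, 4, 0 and 1018, and DESeq2 called 0, 1, 0 and 428. The strings at that p were 21.6% of short strings tested, against 21.8% of strings of all lengths, and DESeq2 called 13287 strings of all lengths.

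Among short V classes TRBV19 was nearest to a call in edgeR. Short TRBV19 reads made up 0.877 and 0.895% of the library in myosin nodes and 1.02, 0.945 and 1.02% in heart extract nodes, against 0.693, 0.772, 0.719 and 0.931% in adjuvant nodes. The antigen mean was 0.950 ± 0.0657% and the adjuvant mean 0.778 ± 0.107%, and adjuvant node 4 lay within the antigen range while the other adjuvant nodes lay below it. The log2 fold change was 0.29 (SE 0.0912, edgeR adjusted p = 0.0942), and DESeq2 called this class (adjusted p = 0.0120). Without adjuvant node 4 edgeR called it as well (adjusted p = 0.0164). Longer TRBV19 CDR3s differed the same way, at 23.2 ± 0.931% of library reads in antigen nodes and 21.1 ± 1.03% in adjuvant nodes (log2 fold change 0.14, edgeR adjusted p = 0.0815). Short TRBV1 had a log2 difference of 0.31 (edgeR adjusted p = 0.188) and short TRBV16 of 0.60 (edgeR adjusted p = 0.346), and strings of 7 residues differed by -0.63 (edgeR adjusted p = 0.134). Short TRBV16 passed without heart extract node 2 (edgeR adjusted p = 0.0375) and strings of 7 residues without myosin node 2 (edgeR adjusted p = 0.0201).

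The strings with the smallest p in this comparison were abundant in 1 or 2 adjuvant libraries. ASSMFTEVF had 0 reads in all 5 antigen nodes, against 3619, 0, 0 and 0 in the adjuvant nodes. ASRQDTEVF had 2 reads in 1 myosin node and none in the other antigen nodes, against 0, 0, 4465 and 732. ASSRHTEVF and ASSKEVF had none in antigen nodes and 2484 and 2349 reads in adjuvant node 1, and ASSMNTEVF had 1876 in adjuvant node 3. All 5 had an edgeR adjusted p of 0.209. Of 46 short strings in every antigen node, 0 were missing from all adjuvant nodes, against 25 of 1166 longer strings (2.14%). The infarction and antigen effects were also set against each other, and the difference between them was called by edgeR for 0 of 8 lengths, 0 of 22 V classes, 0 of 11 J classes and 0 of 4712 strings.

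Sham nodes were compared with adjuvant nodes to place the control groups of both experiments side by side. Site, surgery and adjuvant all differ between them and cannot be told apart. Short TRBV1 was higher in sham nodes, at 0.261, 0.238, 0.230 and 0.264% of library reads, against 0.185, 0.208, 0.147 and 0.190% in adjuvant nodes. The means were 0.248 ± 0.0169% and 0.183 ± 0.0255%, the groups did not overlap, and the log2 fold change was 0.44 (SE 0.124, edgeR adjusted p = 0.0156). Short TRBV2 was lower in sham nodes, at 0.0602, 0.0617, 0.0770 and 0.0562% against 0.0889, 0.0933, 0.105 and 0.105% (log2 fold change -0.62, SE 0.177, edgeR adjusted p = 0.0163), again without overlap.

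These 2 were the calls among 22 short V classes (9.09%), where 13 of all 44 V classes, short and longer, were called (29.5%). Most calls were thus of longer classes, and V differences between sham and adjuvant nodes were not particular to short CDR3s. Neither short TRBV1 nor short TRBV2 passed without edgeR's legacy dispersion settings (adjusted p = 0.992 for both). Among J classes 0 of 11 short ones passed against a background of 36.4%, and 0 of 8 lengths and 0 of 4712 strings passed against 0% each. At an unadjusted p under 0.05 there were 1 J class, 0 lengths and 1090 strings, and DESeq2 called 0, 0 and 237. Over short and longer features together there were 9 of 22 J classes at that p, and 25.6% of strings of all lengths against 23.1% of short ones. DESeq2 called 7436 of 121771 strings of all lengths, beside the 237 of 4712 short ones. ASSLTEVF, made from TRBV14 and TRBJ1-1 and with 0.0105% the highest mean node share of any short string, had 114, 7820, 323 and 716 reads in sham nodes and 0 in all 4 adjuvant nodes (edgeR adjusted p = 0.195). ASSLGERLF had 31, 0, 4 and 3486 reads in sham nodes and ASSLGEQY 1352, 0, 654 and 0, with 0 in adjuvant nodes (edgeR adjusted p = 0.195). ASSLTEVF, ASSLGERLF and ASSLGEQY were also listed in MI nodes and in heart extract nodes. In heart extract nodes 1 and 2 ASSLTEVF had 4450 and 171 reads, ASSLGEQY 730 and 1576, and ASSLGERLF 0 and 1056. Read share differed by 0.0649 points (exact permutation test, two-sided, p = 0.514) and distinct share by 0.155 points (p = 0.457). Sharing differed by -0.873 points and the size ratio by -0.0289 (exact permutation p = 0.571 and 0.629), and all 4 had an adjusted p of 0.629.

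In the infarcted heart short CDR3s were few and dominated by large single strings. The 10 most abundant short strings held 98.5, 97.0 and 81.3% of short reads in the hearts, against 3.20 to 6.15% in the MI nodes. Hearts started from 5000 cells and nodes from 500000, so cell number and tissue cannot be told apart in any of these differences.

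The most abundant short string of each heart was built on TRBV19. It is shown with the centre in capitals, together with the second and the third string of each heart where these were also built on TRBV19.
MI heart 1, TRBV19 with TRBJ1-1: asTRTtevf
MI heart 2, TRBV19 with TRBJ2-3: assILetly
MI heart 3, TRBV19 with TRBJ2-1: assIFaeqf
MI heart 1, TRBV19 with TRBJ2-7: assIGGeqy
MI heart 2, TRBV19 with TRBJ2-7: assMRyeqy
MI heart 3, TRBV19 with TRBJ2-1: assRDaeqf
MI heart 3, TRBV19 with TRBJ2-4: assSGDtly
ASTRTTEVF held 12823 reads of MI heart 1, or 0.528% of the library (95% Wilson interval 0.519 to 0.538%), and was listed in no node. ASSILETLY held 55345 reads of MI heart 2, or 1.26% (1.25 to 1.27%), and in nodes was listed with 2 reads in MI node 2 and 75 reads in sham node 2. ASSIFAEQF held 33368 reads of MI heart 3, or 0.651% (0.644 to 0.658%), and was listed in 9 nodes, with 28, 148 and 178 reads in the MI nodes. Its highest node share was 0.0129%, in heart extract node 2.

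The following strings in size were also seen in nodes at times. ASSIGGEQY had 9528 reads in MI heart 1 and 1708, 50 and 0 reads in the MI nodes, and was the most abundant short string of MI node 1. It was listed in 7 nodes, with 0.00590% of reads in sham node 4 and 0.00496% in heart extract node 2. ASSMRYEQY had 33178 reads in MI heart 2 against 0, 286 and 336 in the MI nodes. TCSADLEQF, from TRBV1, had 10513 reads in MI heart 1, and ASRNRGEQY, from TRBV4, 18332 in MI heart 2. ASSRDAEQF had 18562 and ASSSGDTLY 17077 reads in MI heart 3. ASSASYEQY had 12972 reads and AWRRNTEVF, from TRBV31, 11089 reads in MI heart 3. Both were named because they were also listed in MI node 3, with 20 and 10 reads. They were not confined to it. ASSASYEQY held 0.000649, 0.000779 and 0.000218% of reads in the MI nodes and 0.00435% in heart extract node 2. AWRRNTEVF held 0.000159, 0 and 0.000109% in the MI nodes. No short string was listed in all 3 hearts. AGGEDTQY and ASGEDTQY, named after their values were seen, were each in 2 hearts with 2 to 5 reads.

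Heart strings were found again in the MI nodes in part. Of the short strings of the 3 hearts, 14.3, 22.6 and 21.9% were listed in at least 1 MI node, and they held 53.2, 75.3 and 75.0% of the short reads. For longer strings the shares were 20.8, 22.2 and 23.4% of strings and 63.9, 63.9 and 69.4% of reads. Set against all nodes, 23.8, 30.4 and 33.1% of heart short strings were listed elsewhere, against 56.8, 55.8 and 58.7% of MI node strings. The groups did not overlap (difference -27.9 points, exact permutation test, two-sided, p = 0.1, the smallest this design allows, adjusted p = 0.4). With all libraries drawn down to 2426715 reads the values were 22.6, 31.1 and 31.9% in hearts and 56.3, 55.5 and 58.3% in MI nodes. Read share differed by -0.0546 points, distinct share by -0.276 points and size ratio by 0.0700 (exact permutation p = 1, 0.4 and 0.7).

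V segments were missing from the short CDR3s of hearts. Short reads came from 9, 13 and 14 of 22 V segments in the hearts, against 19, 20 and 20 for longer reads. The hearts held 84, 115 and 178 short strings but 2814, 4038 and 4617 longer ones, so these counts do not rest on like numbers of strings. edgeR called 10 of 22 short V classes between hearts and MI nodes, against 36.4% of all 44 V classes. Of these 10, 8 had 0 heart reads and met the minimum of 3 libraries only through the 3 MI nodes, so their direction was fixed by that filter and they are given as values with no test. TRBV14 was the most abundant of them in nodes. Short TRBV14 had 0 reads in all 3 hearts, against 23502, 26115 and 45928 reads in the MI nodes. Counting error of reads alone would allow TRBV14 up to 0.00593, 0.00201 and 0.00164% of the hearts' short reads (3 reads per library). Reads of 1 string are PCR copies and not separate draws. With only 84, 115 and 178 short strings in the hearts, the share of cells or strings is bounded far less tightly.

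TRBV14 itself was not missing from the hearts: it held 12.6 to 20.4% of their longer reads. At the node share of reads, and with equal reads per cell, 18.7 of 5000 cells would carry a short TRBV14 chain. As strings, TRBV14 had 0 of 84, 0 of 115 and 0 of 178 short strings in the hearts, against 224 of 6785, 271 of 7720 and 238 of 4905 in the MI nodes. Short TRBV2 likewise had 0 heart reads, against 5217, 5858 and 6847 in the MI nodes, with 3.55 of 5000 cells at the node share. The other 6 V classes with 0 heart reads, TRBV30, TRBV23, TRBV17, TRBV26, TRBV12-1 and TRBV24, would have under 1 of 5000 cells each. TRBV12-2, with 20 reads in 2 hearts, and TRBV3, with 225 reads in 3 hearts, were called lower (log2 fold changes -6.81 and -4.55, edgeR adjusted p = 0.00899 each). At the node share they would have only 0.830 and 2.01 of 5000 cells. Their short reads made up 0.0166 ± 0.0171% and 0.0402 ± 0.0116% of MI node reads (SD). TRBV3 lost its call without MI node 1, 2 or 3 (edgeR adjusted p = 0.138, 0.153 and 0.166) and without MI heart 3 (0.0527), and TRBV12-2 without MI node 1 (0.0545) or MI heart 2 (0.0537). TRBV12-2 was also not called without edgeR's legacy dispersion settings (adjusted p = 0.0966), nor TRBV3 with the replicate number as a block (adjusted p = 0.0610).

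**Figure D5:**
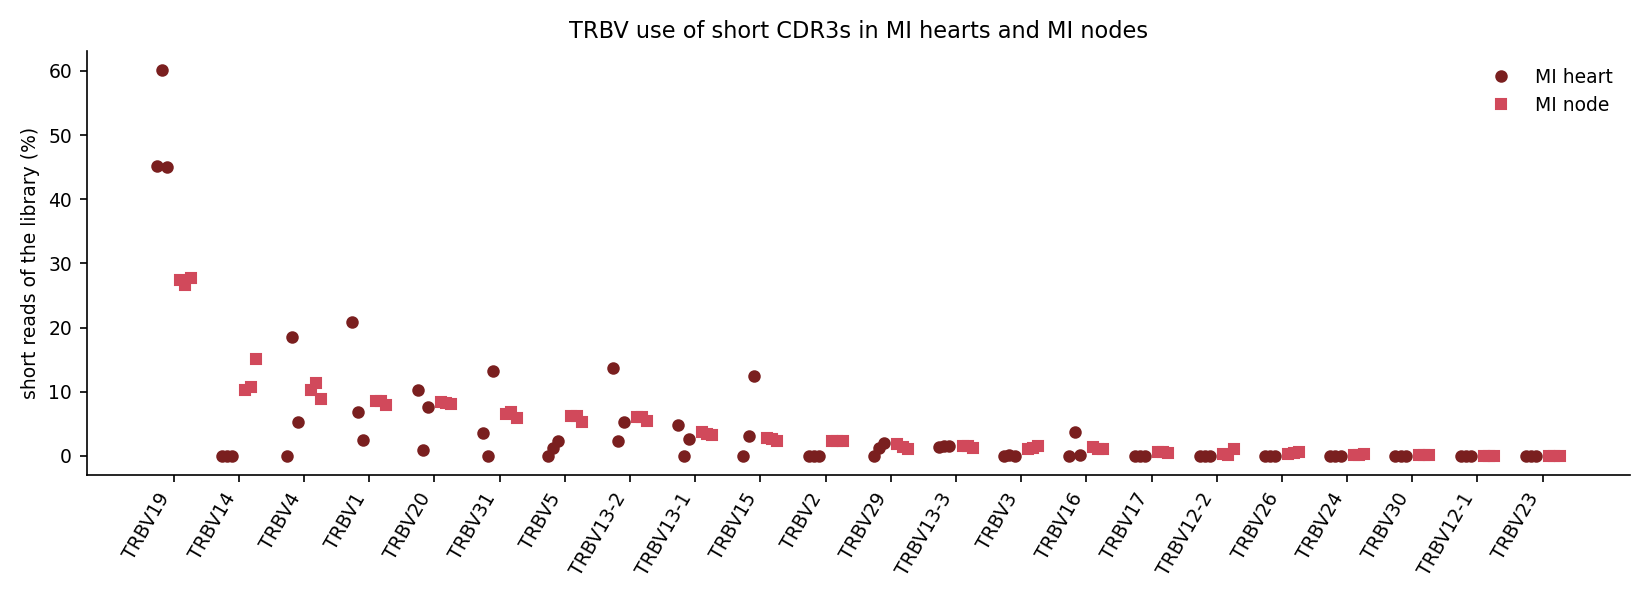
Share of short reads by V segment, in percent, in the 3 MI hearts (circles) and the 3 MI nodes (squares), each point 1 library. TRBV19 stands at 45.1 to 60.1% in hearts against 26.7 to 27.7% in MI nodes, and TRBV14 at 0 in all hearts.

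TRBV19, singled out here after its values were seen, held 45.2, 60.1 and 45.1% of the short reads of the hearts, against 27.5, 26.7 and 27.7% in the MI nodes, without overlap. Its share of longer reads was 32.7 ± 3.43% in hearts and 23.6 ± 0.659% in MI nodes. As strings, TRBV19 had 26 of 84, 31 of 115 and 52 of 178 short strings in the hearts. Single strings weighed heavily in its short reads. ASTRTTEVF had 12823 reads beside 22883 short TRBV19 reads in MI heart 1. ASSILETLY had 55345 beside 89608 in MI heart 2, and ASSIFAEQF 33368 beside 82503 in MI heart 3. As a share of the library, short TRBV19 was not called (log2 fold change 0.87, edgeR adjusted p = 0.0729). No short J class was called, 0 of 11 against a background of 0%, with 0 at an unadjusted p under 0.05 and 0 in DESeq2. Short J reads came from 6, 6 and 10 of 11 segments.

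By length, edgeR called 3 of 6 short classes, against 35.3% of all 17 lengths tested. These were the strings of 4, 5 and 6 residues, with 0 reads in hearts and 766, 2188 and 4689 reads in the MI nodes together. Among strings, 998 of 1029 short ones were called, against a background of 96.1% of all strings called, with 95.9% called lower and 0.239% called higher, and 981 of the 998 had no heart reads. All 3 lengths and these 981 strings met the minimum of 3 libraries only through the MI nodes, so their calls were fixed by the filter and are not read as a result. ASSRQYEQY, the string shown first above, had 0 heart reads against 919, 647 and 823 in the MI nodes. Without any 1 MI node a feature with no heart reads was listed in at most 2 libraries and left the test, and the calls of short lengths and strings were 0. Of 1028 short strings in every MI node 998 were in no heart (97.1%), against 96.9% of longer strings.

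The most abundant short string differed from node to node. It was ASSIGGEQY, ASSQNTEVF and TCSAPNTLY in the MI nodes, at 0.0126 to 0.0375% of library reads, and ASKRNTEVF, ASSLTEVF, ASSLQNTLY and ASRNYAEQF in the sham nodes, at 0.0139 to 0.102%. It was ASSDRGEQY and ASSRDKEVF in the myosin nodes, and ASRTAEVF, ASRQGGEVF and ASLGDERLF in the heart extract nodes. The adjuvant nodes had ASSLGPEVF, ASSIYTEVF, ASRQDTEVF and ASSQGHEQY. Some of these were private: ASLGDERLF and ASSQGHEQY were listed in no other node, while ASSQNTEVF was in 15 nodes and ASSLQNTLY in all 16. The 10 most abundant short strings held 7.40 ± 3.30% of a node's short reads (n = 16).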

How the data were processed

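A provider amplified β chain transcripts by multiplex PCR with gene-specific primers and sequenced the pooled libraries on an Illumina HiSeq, per the labels' protocols. The authors deposited 1 table per library with each CDR3 string, its V and J segment and its raw read count; the lowest count is 2. The aligner is not given in the sources used here.

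Entries were summed per string, length, and V or J segment within short and longer CDR3s. Conserved segment ends were extended while 1 residue held at least 50% of node reads of longer CDR3s. All 33 segment names were matched to the RefSeq gene table, which gave older names.

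Library measures were compared by exact permutation, adjusted by Benjamini-Hochberg over the 4 measures of a comparison. Short and longer CDR3s were compared by 65536 sign flips over 16 nodes (smallest p 3.05e-05), adjusted within V, J and properties. Counts were tested with edgeR 4.0.16 (R 4.3.3; glmQLFit and glmQLFTest, robust, legacy dispersions, library totals as offset) on features with at least 20 reads in all and listed in at least 3 libraries, adjusted over each table at 0.05. Fits of hearts held hearts and MI nodes, the others all 16 nodes. Alternatives were DESeq2 1.42.0, TMM factors, other length limits and entry minimums, drawn depth, the replicate number as a block and each library left out. Tests were tried on simulated data.

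Members and lists were chosen with earlier results of these data known. Named items are segments and lengths that passed (up to 12 by p, otherwise the 4 smallest p), the 8 largest V and J differences between short and longer CDR3s, and strings chosen by mean share, recurrence, rank in a library or p in a comparison. Same-numbered libraries correlated at under 0.1 over strings, and the main tests took libraries as unpaired. Each heart still correlated best with the MI node of its own number, so a pairing of these was not excluded.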

Additional observations from a re-analysis of the deposited data

Results flagged for a closer look

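Among the 4 adjuvant nodes, TRBJ1-3 held 3.12% of the short reads of adjuvant node 4, while the others had 1.84 to 1.90%. The gap made up 0.951 of the group's range. In the same library TRBJ2-4 held 4.70% of short reads, while the others had 6.02 to 6.06%, a gap of 0.967 of the range. These were the 2 values set apart, both from 1 library, in 44 groups of values examined by Dixon's criterion, which chance alone passes in about 1 group in 20.

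The depletion of TRBJ2-2 in short CDR3s differed between node sites. Short minus longer, it was -4.43 ± 0.300 points in the 7 mediastinal nodes and -3.79 ± 0.319 points in the 9 axillary nodes (SD), a difference of -0.636 points (permutation test, two-sided, adjusted p = 0.0202). Site goes with surgery against injection, and these cannot be told apart.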

How the results depend on the processing

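Short against longer CDR3s, the 8 largest V and the 8 largest J differences were followed through other settings. They kept their direction except TRBV19 and TRBV4 among distinct entries (-1.27 and -0.0131 points) and TRBV19 at a limit of 8 residues (-4.62). The other V and J differences named in the report were not followed in this way. Sharing turned to -3.38 points at 8 residues and log2 reads per string to 0.0244 at 10. Of the 4 measures compared between groups under settings other than a left-out library, 67 values kept direction and side of the threshold and 17 reversed, all from differences that did not pass. At 10 residues read share became 0.302 points (MI minus sham nodes), -0.206 (antigen minus adjuvant), 3.01 (hearts minus MI nodes) and -0.298 (sham minus adjuvant), distinct share 2.33 (hearts), size ratio 0.00882 (MI) and sharing 0.276 (antigen). At 8 residues sharing became 0.572 (MI) and the size ratio 0.0565 (antigen), -0.469 (hearts) and 0.00930 (sham). Without entries under 10 reads distinct share became -0.247 (MI) and -0.193 (sham), read share 0.0236 (hearts), and the size ratio 0.0292 (MI), 0.0147 (antigen) and 0.0613 (sham, exact permutation p = 0.0286 before adjustment). The cause was not tested.

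Of the counts of called short classes and strings under such settings, 114 stayed within 1.5 times and 12 moved. DESeq2 called 1 V class between antigen and adjuvant nodes, TRBV19, and 110, 428 and 237 of 4712 short strings (MI against sham, antigen against adjuvant, sham against adjuvant). Over all lengths it called 3816, 13287 and 7436 of 121771 strings, in the same order. Without legacy dispersions sham against adjuvant nodes had 0 V classes and 1 J class, TRBJ1-1, which TMM factors also called (1). For hearts, 613 strings were called without entries under 10 reads and 11 with no filter on low counts. The fit of strings over 16 nodes with no filter was not run.

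With the replicate number as a block, antigen against adjuvant nodes had 1 V class (TRBV19, edgeR adjusted p = 0.0414), sham against adjuvant nodes 4 V classes, and hearts 0 strings. Each heart correlated best with the MI node of its own number (0.0257, 0.0242 and 0.0315), a hint from the data and not the design.

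Leaving out each library gave differences of -0.200 to 0.0137 in read share and -0.0516 to 0.0763 in distinct share (MI against sham). It gave -0.0317 to 0.0249 in size ratio and -1.52 to 0.722 in sharing (antigen), -0.333 to 0.409 in read share and -0.0612 to 0.197 in size ratio (hearts), and -0.0546 to 0.00257 in size ratio (sham against adjuvant). Short calls ran from 0 to 4 lengths, 0 to 11 V classes, 0 to 3 J classes (1 without MI heart 2, 3 without MI heart 3) and 0 to 1007 strings for hearts. They ran from 0 to 1 lengths (without myosin node 2) and 0 to 1 V classes (without adjuvant node 4 or heart extract node 2) for antigen, and 2 to 4 V classes (4 without adjuvant node 4) and 0 to 2 J classes (2 without sham node 1, 1 without adjuvant node 3) for sham against adjuvant. Without sham node 4 short TRBJ2-1 and TRBJ1-1 turned direction in MI against sham nodes, within -0.338 to 0.0482 and -0.00453 to 0.154 over all libraries left out. Drawing libraries to 2426715 reads left sharing at 22.6, 31.1 and 31.9% in the hearts.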
